A study of Mus musculus with 27 samples.

Results

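The genes described are 10 components of EGF, MET and FGF receptor signalling, chosen by name from an annotated table of 21848 genes. Of these, 6 encode receptors (Egfr, Erbb2, Erbb3, Met, Fgfr2 and Fgfr4) and 4 encode ligands of the EGF family (Areg, Ereg, Hbegf and Tgfa). All 10 were present in the table and all 10 passed the filter on low counts in every comparison.

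Their levels were measured by bulk RNA-seq (SMART-seq2, which amplifies full-length cDNA from small inputs) in 27 mouse liver libraries, 3 in each of 9 conditions, all on a C57BL/6 background and from adult mice. Freshly isolated hepatocytes were the uncultured reference. Hepatocyte organoids (HepOrgs), cultures grown in Matrigel from wild-type primary hepatocytes, were collected after 1 or 2 weeks (7 or 14 days) from passage 2, with or without a switch from HM-Wnt, in which they expand, to MM. HM-Wnt held EGF at 50 ng/ml, HGF at 25 ng/ml, FGF7 at 50 ng/ml and FGF10 at 100 ng/ml, together with gastrin, RSPO1 conditioned medium, nicotinamide, a GSK3 inhibitor and a TGFβ receptor inhibitor, while MM held none of these and shared with HM-Wnt the basal medium, WNT conditioned medium and the ROCK inhibitor Y-27632. Periportal assembloids were made in MM by aggregating 10 HepOrgs with 1000 cholangiocytes, dissociated from organoids of mice with a nuclear tdTomato reporter, and with portal mesenchymal cells sorted as PDGFRα+ SCA1+ from Pdgfra-H2B-GFP mice. Homeostasis assembloids received 250 mesenchymal cells per well and fibrosis-like assembloids 2500, and both were collected after 1 or 2.5 weeks (7 or 18 days). The third fresh library is titled wild type but carries a heterozygous MDR2 genotype label, so that every call against fresh hepatocytes was also computed without it. Nothing in the labels says that replicates came from separate animals or cultures, and the p-values therefore measure the spread between libraries, which may be technical.

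In the EGF family, ligands such as amphiregulin (Areg), epiregulin (Ereg), HB-EGF (Hbegf) and TGFα (Tgfa) are made as membrane-bound precursors, shed by proteases and bound by EGFR, which signals as a homodimer or together with ERBB2, a partner without a ligand of its own, or with ERBB3, whose kinase activity is weak. MET is the receptor for hepatocyte growth factor, which is secreted by mesenchymal cells. FGFR2 in its epithelial splice form binds FGF7 and FGF10, and FGFR4 with its co-receptor β-Klotho (Klb) receives the endocrine signal of intestinal FGF15 that restrains bile acid synthesis in hepatocytes. All of these receptors feed the RAS-ERK cascade, which drives hepatocyte proliferation in regenerating liver, and whose nuclear output includes its own inhibitors of the DUSP, Sprouty and SPRED families.

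Total counts ran from 30289364 to 65348596 per library, with a median of 43727965. Homeostasis replicate 2 at 1 week stood apart, with 6625 genes at 10 or more counts against 11840 to 14162 in the other 26 libraries, and member differences that turn on it are given with and without it. Summed levels of 8 hepatocyte markers lay between 65345 and 101813 CPM (counts scaled to a common library total) in fresh hepatocytes, and none of the 8 was listed at 0 throughout a HepOrg or assembloid condition, although the sum was as low as 2293 CPM in a homeostasis library at 1 week. Levels below are CPM after TMM scaling over the 27 libraries. In these libraries 3 reads, taken as the floor for a gene listed at 0, are worth between 0.0312 and 0.128 CPM, a limit that covers counting error only.

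Areg (chr5:91287451-91296291, plus strand, GRCm39) and Ereg (chr5:91222157-91241505, plus strand) are neighbours, with the start of Areg 45946 bases beyond the end of Ereg. Tgfa lies at chr6:86172041-86252728. The receptors lie at chr11:16702198-16868158 (Egfr), chr11:98303203-98328542 (Erbb2), chr10:128403392-128425811 (Erbb3), chr6:17463749-17573979 (Met) and chr13:55300352-55316572 (Fgfr4). For 7 of the 10 members the RefSeq sequence of the 250 bases before the RefSeq start of the gene (GRCm38.p6) was used. That start is not the start of the annotated gene: in GRCm39 the windows of Areg, Tgfa, Met, Egfr and Erbb2 run past the annotated start. The windows of Fgfr4 and Fgfr2 lie wholly inside the gene. The sequence is shown for Areg, Tgfa and Fgfr4, which passed the test both against fresh hepatocytes and between the media, and for Met, which passed neither. Capitals mark a match to the CRE motif TGACGTCA or the AP-1 motif TGANTCA, searched on both strands.
Areg, chr5:91139349-91139598, plus strand: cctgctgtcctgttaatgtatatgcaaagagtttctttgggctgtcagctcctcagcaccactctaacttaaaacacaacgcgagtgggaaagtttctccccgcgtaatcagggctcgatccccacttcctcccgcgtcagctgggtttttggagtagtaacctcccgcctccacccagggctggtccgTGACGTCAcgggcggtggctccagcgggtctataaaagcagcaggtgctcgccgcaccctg
Tgfa, chr6:86194972-86195221, plus strand: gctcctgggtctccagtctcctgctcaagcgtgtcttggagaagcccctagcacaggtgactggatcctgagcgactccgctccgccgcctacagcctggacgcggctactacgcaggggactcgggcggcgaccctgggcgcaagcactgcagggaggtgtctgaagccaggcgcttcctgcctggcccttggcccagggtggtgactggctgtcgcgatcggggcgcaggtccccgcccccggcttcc
Fgfr4, chr13:55152568-55152817, plus strand: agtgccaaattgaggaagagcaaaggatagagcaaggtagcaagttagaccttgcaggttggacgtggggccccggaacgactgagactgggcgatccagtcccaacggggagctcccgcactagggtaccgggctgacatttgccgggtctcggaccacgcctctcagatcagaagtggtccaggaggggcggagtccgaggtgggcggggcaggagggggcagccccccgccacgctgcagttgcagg
Met, chr6:17463707-17463956, plus strand: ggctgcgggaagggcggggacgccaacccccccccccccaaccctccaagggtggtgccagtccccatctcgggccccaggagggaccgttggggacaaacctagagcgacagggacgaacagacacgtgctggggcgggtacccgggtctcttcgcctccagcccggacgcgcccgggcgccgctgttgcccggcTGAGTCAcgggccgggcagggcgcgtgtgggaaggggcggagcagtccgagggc
The Areg window holds 1 CRE motif, starting 61 bases before the RefSeq start, a motif found in 1.55% of 32841 windows of this length. The Met window holds 1 AP-1 motif, starting 54 bases before the RefSeq start and so inside the gene as placed above, which 6.75% of windows hold. Neither motif occurs in the windows of Tgfa, Fgfr4, Egfr, Erbb2 or Fgfr2, each of which lies partly or wholly inside the annotated gene.

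Fgfr2 needs a separate remark on how it was counted. The annotation behind the table gives it a span of 2.962 Mb on the minus strand (chr7:129763471-132725079), whereas its canonical transcript spans 104.802 kb. Another 29 genes of the table lie wholly inside that span, 13 on the same strand and 16 on the other, and all 29 were listed at 0 in all 27 libraries. In the 3 Mb on either side, 75 of 81 genes had counts. Of all genes in the table, 14.8% were listed at 0 throughout. Reads from this interval could not be divided between Fgfr2 and the genes inside it, and values for Fgfr2 are those of the deposited count. None of the other 9 members has such an overlap, the largest share being 0.176% of the exon bases of Erbb2.

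**Figure D1:**
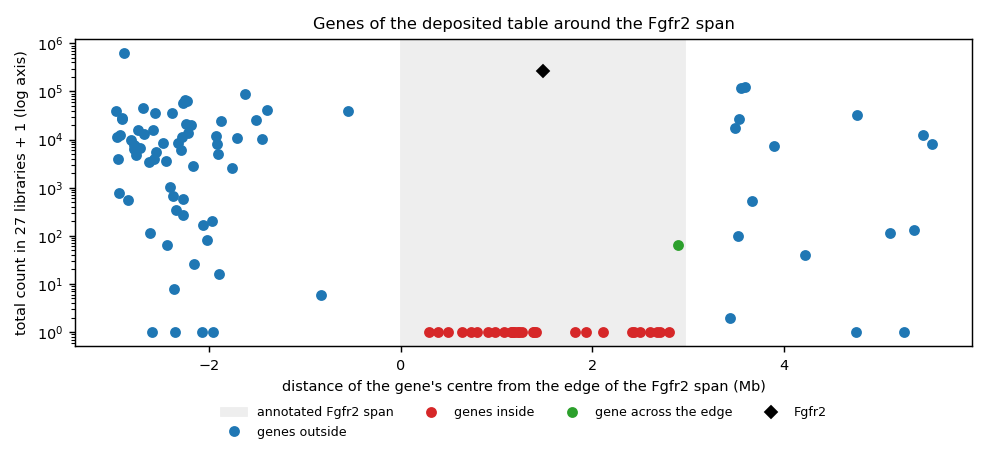
Total count plus 1 over the 27 libraries (log axis) of each gene of the table near Fgfr2, against the distance of the gene's centre from the edge of the annotated Fgfr2 span in Mb, with the span shaded. The 29 genes inside the shaded interval sit at a count of 0 while 75 of the 81 genes outside it have counts.

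Areg and Ereg were scarce in fresh hepatocytes and higher in every cultured library, whereas Hbegf and Tgfa overlapped with the fresh libraries in some cultured conditions. Areg, a ligand induced in injured liver, had 0.272, 0.17 and 0.0304 CPM in the 3 fresh libraries (10, 4 and 1 reads). In HM-Wnt it stood at 36.4, 23.8 and 96.4 CPM at 1 week and 70.6, 93.9 and 51.5 CPM at 2 weeks. In MM the values were 4.82, 6.41 and 48.8 CPM at 1 week and 7.14, 4.97 and 21.2 CPM at 2 weeks. Every cultured library therefore held more Areg than every fresh library, and in MM the third replicate was the highest at both times. In homeostasis assembloids Areg was at 6.18, 193 and 11.9 CPM at 1 week and 8.44, 12.2 and 2.57 CPM at 2.5 weeks. In fibrosis-like assembloids it was at 22.7, 42.6 and 41.5 CPM at 1 week and 10.3, 22.1 and 8.43 CPM at 2.5 weeks. The value of 193 CPM belongs to the homeostasis library with few detected genes and is the highest of the 27.

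Ereg, which like Areg is shed from the cell surface and binds EGFR, had 0.0543, 0.256 and 0 CPM in fresh hepatocytes (2, 6 and 0 reads). The 6 HM-Wnt libraries lay between 1.92 and 9.3 CPM and the MM HepOrgs between 0.642 and 4.25 CPM. The fibrosis-like assembloids stood above all of these, at 16.6, 16.5 and 20 CPM at 1 week and 17.5, 26.8 and 14.9 CPM at 2.5 weeks. Homeostasis assembloids had 0.312, 1.21 and 6.3 CPM at 1 week and 3.08, 2.05 and 1.9 CPM at 2.5 weeks. The lowest fibrosis-like library, at 14.9 CPM, thus lay above the highest library of any other condition, at 9.3 CPM.

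Hbegf (chr18:36637980-36649677, GRCm39), a ligand that also binds heparan sulphate, had 4.35, 1.53 and 1.19 CPM in fresh hepatocytes. HM-Wnt HepOrgs held 7.28, 10.4 and 7.61 CPM at 1 week and 10.3, 12.3 and 26.9 CPM at 2 weeks, and MM HepOrgs 4.29, 5.08 and 19.6 CPM and then 2.25, 3.03 and 8.54 CPM. Of the HepOrg groups, those in HM-Wnt lay wholly above the fresh libraries and those in MM did not. Fibrosis-like assembloids had 37.6, 19 and 72.6 CPM at 1 week and 12.3, 41.3 and 12 CPM at 2.5 weeks, against 1.39, 64.6 and 6.15 CPM and then 5.66, 3.79 and 2.96 CPM in homeostasis assembloids. As with Areg, the value of 64.6 CPM is that of homeostasis replicate 2.

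Tgfa, the EGFR ligand made by hepatocytes themselves during regeneration, was already present in fresh hepatocytes at 36.1, 32.7 and 42.5 CPM. In HM-Wnt it was at 99.7, 54.1 and 105 CPM at 1 week and 104, 99.1 and 121 CPM at 2 weeks, and in MM at 50.3, 41.4 and 73.7 CPM and 56.4, 46.6 and 66.4 CPM. The HM-Wnt libraries at 2 weeks did not overlap with the MM libraries of the same time. Assembloids held between 34.1 and 72.3 CPM, apart from homeostasis replicate 2 at 1 week with 184 CPM.

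**Figure D2:**
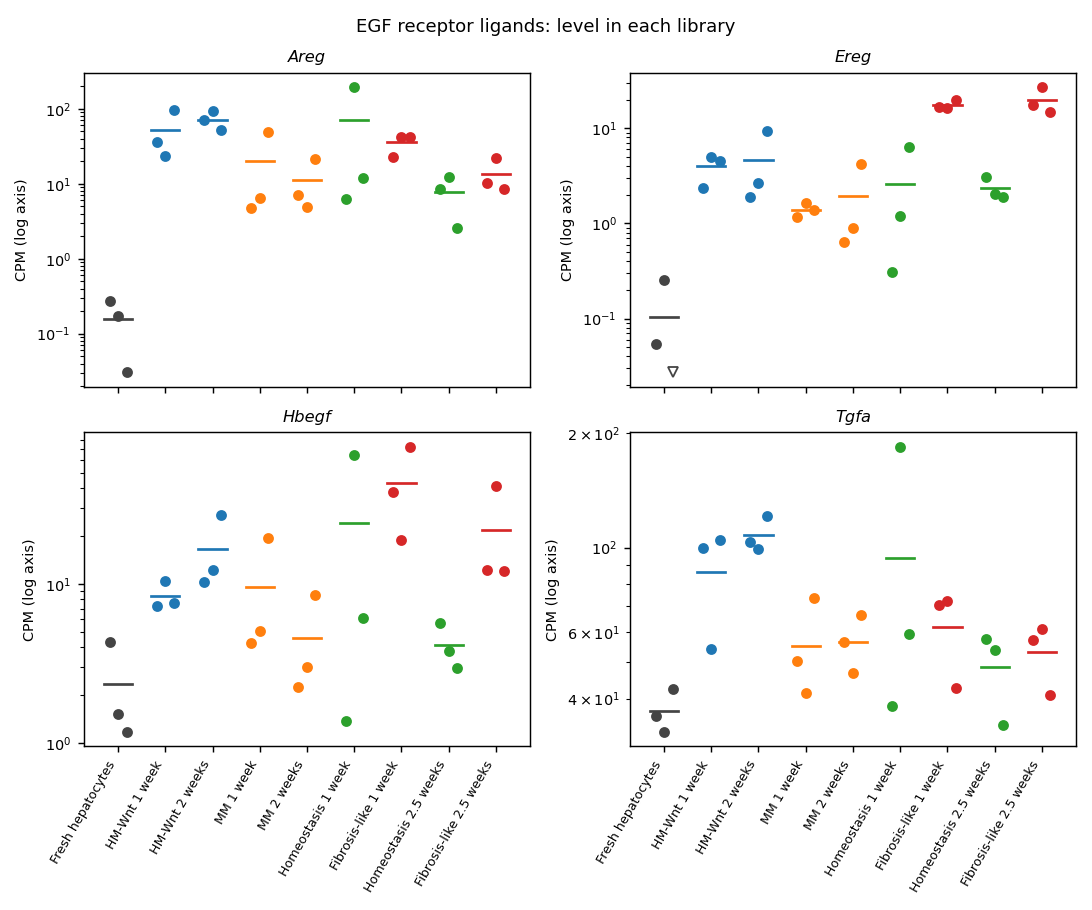
CPM (log axis) of the 4 ligands in each of the 27 libraries, grouped by condition, with points for libraries, bars for the mean of 3 and an open triangle at the lower edge for a library listed at 0. Areg and Ereg are lowest in the 3 fresh libraries, and Ereg is highest in the 6 fibrosis-like libraries, which run from 14.9 to 26.8 CPM.

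Expressed per kilobase of canonical transcript, Tgfa had the highest mean level of the 4 ligands in fresh hepatocytes, with 7.87 CPM per kb against 0.989 for Hbegf, 0.129 for Areg and 0.0232 for Ereg. This scale compares genes only as far as their reads came from exons. The gene lengths deposited with the counts lie within 5% of the whole gene span for 80.8% of genes, so reads from introns may be included. The order of the ligands is uncertain to that extent. In HM-Wnt at 1 week Areg led with a mean level of 42.7 CPM per kb, followed by Tgfa with 18.3, Hbegf with 3.55 and Ereg with 0.893. In fibrosis-like assembloids at 1 week the mean levels per kb were 29.1 for Areg, 18.1 for Hbegf, 13.1 for Tgfa and 3.98 for Ereg. Areg also led in HM-Wnt at 2 weeks, in MM at 1 week and in homeostasis assembloids at 1 week, the last through replicate 2. Tgfa had the higher mean level per kb in MM at 2 weeks (11.98 against 9.09 CPM for Areg), in homeostasis assembloids at 2.5 weeks (10.3 against 6.32) and, by little, in fibrosis-like assembloids at 2.5 weeks (11.2 against 11.1).

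Of the receptors, Egfr, Erbb3, Fgfr4 and Fgfr2 had their highest mean in fresh hepatocytes. Fgfr4 showed the widest separation, with 65, 30.2 and 46 CPM in the fresh libraries. HM-Wnt HepOrgs held 2.44, 2.37 and 1.66 CPM at 1 week and 1.25, 1.13 and 1.49 CPM at 2 weeks, and MM HepOrgs 5.59, 6.52 and 2.1 CPM and 5.62, 5.07 and 2.3 CPM. No cultured library exceeded 7.4 CPM, the highest value in homeostasis assembloids at 2.5 weeks. Homeostasis replicate 2 at 1 week was listed at 0, where the floor is 0.0614 CPM.

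Egfr, the receptor shared by all 4 ligands, was at 1059, 465 and 1100 CPM in fresh hepatocytes. HepOrgs held 518, 380 and 382 CPM in HM-Wnt at 1 week, 355, 484 and 298 CPM at 2 weeks, 513, 453 and 315 CPM in MM at 1 week and 443, 380 and 254 CPM at 2 weeks. The second fresh library lay among the HepOrgs, while the other two lay above every cultured library. Assembloids ranged from 129 to 345 CPM.

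Erbb3, which is abundant in liver and depends on a partner kinase, had 144, 131 and 96.2 CPM in fresh hepatocytes, between 32.2 and 55.3 CPM in HM-Wnt HepOrgs and between 44 and 70.6 CPM in MM HepOrgs. None of the 12 HepOrg libraries reached the fresh ones, and of the assembloids the homeostasis replicate 2 at 1 week alone did. In fibrosis-like assembloids Erbb3 was at 28.3, 26.8 and 21.3 CPM at 1 week and 29.1, 43.1 and 27.3 CPM at 2.5 weeks, and in homeostasis assembloids at 50.4, 121 and 29.1 CPM and 45.8, 47.4 and 39.9 CPM.

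Erbb2, the ligandless partner, had the opposite order. It was near absent in fresh hepatocytes, at 0.244, 0.938 and 0.304 CPM, and ranged from 3.1 to 14.5 CPM over the 12 HepOrg libraries. Fibrosis-like assembloids held 19.4, 13.9 and 37.5 CPM at 1 week and 10.6, 61.3 and 8.29 CPM at 2.5 weeks, against 3.17, 1.6 and 11.8 CPM and 4.57, 4.84 and 2.87 CPM in homeostasis assembloids. All 24 cultured libraries lay above the fresh ones, and at each time the fibrosis-like libraries lay above the homeostasis libraries.

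Met, the HGF receptor, had means between 45.6 and 65.5 CPM in the 8 cultured conditions. Fresh hepatocytes had 32.8, 85.5 and 17.7 CPM, a spread that encloses all 24 cultured libraries. Fgfr2, with the limit on its counting given above, was at 654, 588 and 308 CPM in fresh hepatocytes, 431, 312 and 209 CPM in HM-Wnt at 1 week and 723, 168 and 546 CPM at 2 weeks. In MM it was at 144, 306 and 143 CPM at 1 week and 182, 183 and 194 CPM at 2 weeks, and in assembloids it ran from 16.1 to 403 CPM. Its replicates differed by more than those of the other receptors in HM-Wnt at 2 weeks.

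**Figure D3:**
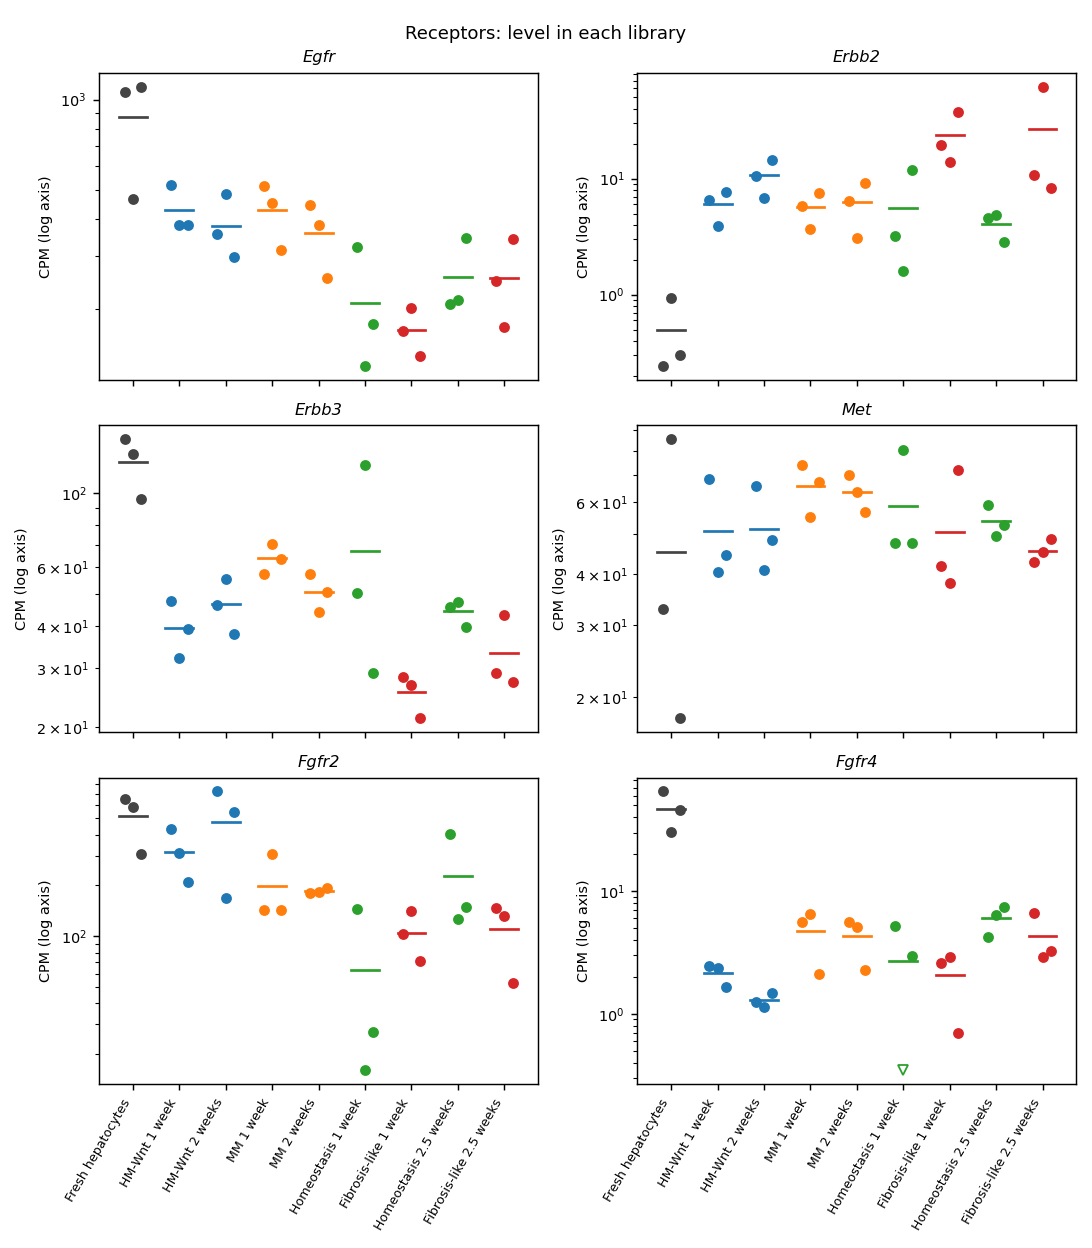
CPM (log axis) of the 6 receptors in each of the 27 libraries, grouped by condition, with points for libraries, bars for the mean of 3 and an open triangle at the lower edge for a library listed at 0. Fgfr4 falls from 30.2 CPM or more in fresh hepatocytes to 7.4 CPM or less in culture, whereas Erbb2 is below 1 CPM in the fresh libraries alone.

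Ordered by mean level over the 9 conditions, most neighbouring conditions overlapped in their libraries. The breaks were between fresh hepatocytes and the next condition for Fgfr4 (mean levels of 47.1 and 6.00 CPM), between fresh hepatocytes and the next condition for Areg, Ereg and Erbb2, between MM HepOrgs at 2 weeks and fibrosis-like assembloids at 2.5 weeks for Fgfr2 (186 and 111 CPM), and between fibrosis-like assembloids at 1 week and HM-Wnt HepOrgs at 2 weeks for Ereg (17.7 and 4.62 CPM). For Egfr, Erbb3, Met, Hbegf and Tgfa no neighbours in the order were separate. Per kilobase of canonical transcript, the mean levels in fresh hepatocytes were 85.6 CPM for Egfr, 20.5 for Erbb3, 14.2 for Fgfr4, 6.61 for Met and 0.0970 for Erbb2. Fgfr2 is left out of this order, since its count may hold reads of the genes inside its annotated span. As for the ligands, reads from introns may be in the counts of the other receptors, which makes their order uncertain.

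The comparison of HepOrgs with fresh hepatocytes asks how far the receptor and ligand set is retained in culture. The 4 comparisons share the same fresh libraries and are given side by side. In HM-Wnt, 5 members rose and 3 fell at 1 week (49.7% of the 13405 genes tested passed the threshold) and 5 rose and 3 fell at 2 weeks (51.8%). In MM, 4 rose and 4 fell at 1 week (42.8%) and 3 rose and 4 fell at 2 weeks (39.7%). The share of members that passed was above that of all genes in each comparison, a difference for which no test was made. Every ligand that passed had risen, and every receptor that passed had fallen except Erbb2. In MM the receptors that fell include Fgfr2, whose count may hold reads of the genes inside its annotated span. The median log2 fold change of the members was 0.65, 0.84, 0.52 and 0.52, beside 0.02, 0.03, 0.00 and -0.01 for all genes.

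Areg had the largest differences of the members, with log2 fold changes of 7.91 ± 1.16 (SE; adjusted p = 0.000107) and 8.39 ± 1.17 (adjusted p = 6.6e-05) in HM-Wnt at 1 and 2 weeks. In MM they were 6.53 ± 1.11 (adjusted p = 0.000469) and 5.70 ± 1.09 (adjusted p = 0.00114). The ratios of the mean levels were 332, 457, 127 and 70.6. For Ereg the log2 fold changes were 4.75, 4.98, 3.28 and 3.73 in the same order, with adjusted p from 0.000759 to 0.00957. Because the fresh libraries held so few reads of both genes, these fitted folds depend on the prior count, and on log2(TPM + 1) the difference of Ereg in MM did not pass the threshold (adjusted p = 0.207 at 1 week and 0.166 at 2 weeks). Both genes kept their calls in HM-Wnt under every alternative tried.

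Tgfa rose in HM-Wnt by 1.18 ± 0.26 (adjusted p = 0.00201) and 1.52 ± 0.26 (adjusted p = 0.000319) on the log2 scale. In MM its log2 fold changes of 0.54 (adjusted p = 0.1) and 0.58 (adjusted p = 0.0847) missed the threshold, and both passed with the replicate number as a block (adjusted p = 0.0216 and 0.0133). Hbegf rose in HM-Wnt by 1.78 ± 0.68 (adjusted p = 0.0429) and 2.77 ± 0.70 (adjusted p = 0.005) and in MM at 1 week by 1.98 ± 0.68 (adjusted p = 0.032), and did not pass in MM at 2 weeks (0.92, adjusted p = 0.292). The call for Hbegf at 1 week was lost in HM-Wnt without any of the HM-Wnt replicates or without fresh replicate 2 or 3, and in MM without MM replicate 3 (0.98, adjusted p = 0.236), without fresh replicate 2 or 3, or with the block (1.60, adjusted p = 0.0597).

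Erbb2 rose in all 4 comparisons, with log2 fold changes of 3.49 ± 0.56, 4.32 ± 0.57, 3.41 ± 0.55 and 3.55 ± 0.56 and adjusted p of at most 0.000333. Fgfr4 fell by 4.45 ± 0.47 and 5.15 ± 0.49 in HM-Wnt and by 3.31 ± 0.44 and 3.44 ± 0.44 in MM on the log2 scale, with adjusted p of at most 7.04e-05, to between 0.0273 and 0.101 of its fresh level. The calls of these genes and of Areg were retained under every alternative, including without the fresh library of uncertain genotype.

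Erbb3 fell by 1.68 ± 0.20, 1.43 ± 0.20, 0.97 ± 0.20 and 1.31 ± 0.20 on the log2 scale, with adjusted p of at most 0.00159. In MM at 1 week the call was lost on log2(TPM + 1) (adjusted p = 0.229) and in a fit of all 27 libraries (adjusted p = 0.0603). Egfr fell by 1.07 ± 0.33 (adjusted p = 0.016), 1.22 ± 0.33 (adjusted p = 0.00722), 1.05 ± 0.33 (adjusted p = 0.0205) and 1.30 ± 0.33 (adjusted p = 0.00701). At 1 week the Egfr call did not survive the removal of fresh replicate 1 or 3 in either medium (adjusted p from 0.061 to 0.0912), of HM-Wnt replicate 2 or 3, or of MM replicate 3, and the log2(TPM + 1) scale gave no Egfr call in any of the 4 comparisons.

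The deposited count of Fgfr2, which may hold reads of the genes inside its span, fell in MM, by 1.40 ± 0.48 (adjusted p = 0.0317) and 1.49 ± 0.48 (adjusted p = 0.0252) and did not pass in HM-Wnt (-0.74, adjusted p = 0.213, and -0.12, adjusted p = 0.844). In MM the Fgfr2 call was lost on log2(TPM + 1), without fresh replicate 1 or 2 at both times, without MM replicate 1 or 3 at 1 week and without any MM replicate at 2 weeks. Met passed in none of the 4 (log2 fold changes from 0.13 to 0.50), with 0 calls also by DESeq2, and its interval in HM-Wnt at 1 week, from -0.79 to 1.04, admits changes of either sign. Without fresh replicate 2, the highest of the fresh libraries for Met, it passed in all 4 comparisons, with log2 fold changes of 1.00, 1.03, 1.36 and 1.34 and adjusted p of at most 0.0161, and on log2(TPM + 1) it passed in 3 of the 4.

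Of 75 further genes of these pathways, 66 had enough counts for the test. In HM-Wnt 23 of the 66 rose and 10 fell at 1 week, beside 49.7% of all genes that passed, and 26 rose and 11 fell at 2 weeks (51.8%). In MM 23 rose and 11 fell at 1 week (42.8%) and 21 rose and 9 fell at 2 weeks (39.7%). These shares lie near those of all genes, and nothing is read from them. Btc, the EGF family ligand betacellulin, rose in all 4 (log2 fold changes of 4.34, 4.54, 3.47 and 3.64), as did Nrg1, a neuregulin that binds ERBB3 (4.59, 4.55, 5.06 and 4.96). Around MET, the plasminogen activator Plat (8.95, 9.21, 8.48 and 8.44), the protease St14 and the HGF activator inhibitor Spint1 rose, Spint1 from a mean of 0.0284 CPM in fresh hepatocytes to between 5.34 and 15.8 CPM in HepOrgs. Hgf, the ligand of MET, had a mean of 4.87 CPM in fresh hepatocytes and fell in HM-Wnt at 2 weeks (-4.52 ± 1.55, adjusted p = 0.0255), but not past the threshold in HM-Wnt at 1 week (-3.19, adjusted p = 0.0846) or in MM (-2.14 and -2.17, adjusted p = 0.234 and 0.238). In HM-Wnt at 2 weeks its list had 3 genes that fell, and 0 to 2 when any 1 library was left out. Egf passed in none of the 4 (-0.23, -0.45, 0.15 and -1.25, adjusted p of at least 0.0527).

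Of the FGF list, 6 of 12 genes were tested, and 4 fell in HM-Wnt at 1 week, beside 49.7% of all genes that passed. Klb, the β-Klotho co-receptor of FGFR4, fell by 4.12 and 4.56 on the log2 scale in HM-Wnt and by 2.21 in MM at 1 week, Fgfr3 fell in all 4, and so did Fgf1 (-3.66, -4.12, -3.64 and -3.47). Erbb4, the neuregulin receptor, fell in HM-Wnt (-4.07 and -4.70). Of 17 genes taken as ERK output, 7 rose and 0 fell in HM-Wnt at 1 week, a smaller share than the 49.7% of all genes that passed, and 9 rose and 0 fell at 2 weeks (51.8% of all genes), with Ier3 as the highest (7.28 and 7.97). Without fresh replicate 2, 3 fell at 1 week and 1 at 2 weeks. In MM 6 rose and 3 fell at both times (42.8% and 39.7% of all genes), with Ccnd1 (cyclin D1; -2.09 and -2.53), Phlda1 and Spry4 (a Sprouty inhibitor) as those that fell. At 1 week 0 fell without MM replicate 1 or 2 or fresh replicate 1, 1 without fresh replicate 3 and 2 without MM replicate 3, and at 2 weeks 1 fell without fresh replicate 1. Limma on log2(TPM + 1) gave 0 that fell at either time, and the fit of all 27 libraries gave 2 that rose and 1 that fell at 1 week and 3 and 1 at 2 weeks. The feedback inhibitor Errfi1 was among the lowest in MM at 2 weeks (-2.30). Of these genes Klb and Ccnd1 have 19.7% and 61.0% of their exon bases inside another annotated gene, so that their counts are less certain.

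Summed levels of some cell type markers also differed between HepOrgs and fresh hepatocytes. The summed level of 8 cholangiocyte markers was 41.9 to 168 CPM in fresh hepatocytes, with Cftr at 0, and 3542 to 15002 CPM in HepOrgs. The sum does not stand for each marker: in HM-Wnt at 1 week Krt19 was at 1.43 to 5.54 CPM and the sum at 5627 to 15002 CPM. The paper reports that its HepOrgs lacked ductal markers such as SOX9 and KRT19. Of 7 tested markers 3 rose in HM-Wnt at 1 week and 5 in each of the other 3 comparisons. All 8 endothelial markers fell in the 4 comparisons, from a summed level of 59.1 to 281 CPM to at most 13.7 CPM. Of the 8 hepatocyte markers 4, 6, 6 and 7 fell, and of the 8 immune markers 7, 6, 6 and 4, with 1 hepatocyte marker higher in MM at 2 weeks and 1 immune marker higher in each comparison. Of 7 tested portal mesenchyme markers 2 fell at each time in HM-Wnt and 1 rose in MM at 1 week. Of all genes 49.7% and 51.8% passed in HM-Wnt at 1 and 2 weeks and 42.8% and 39.7% in MM. Nothing is read from marker counts near these shares. In these bulk libraries fewer cells of a type and less RNA per cell cannot be told apart, and the part of cell composition in the values of the members was not tested.

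**Figure D4:**
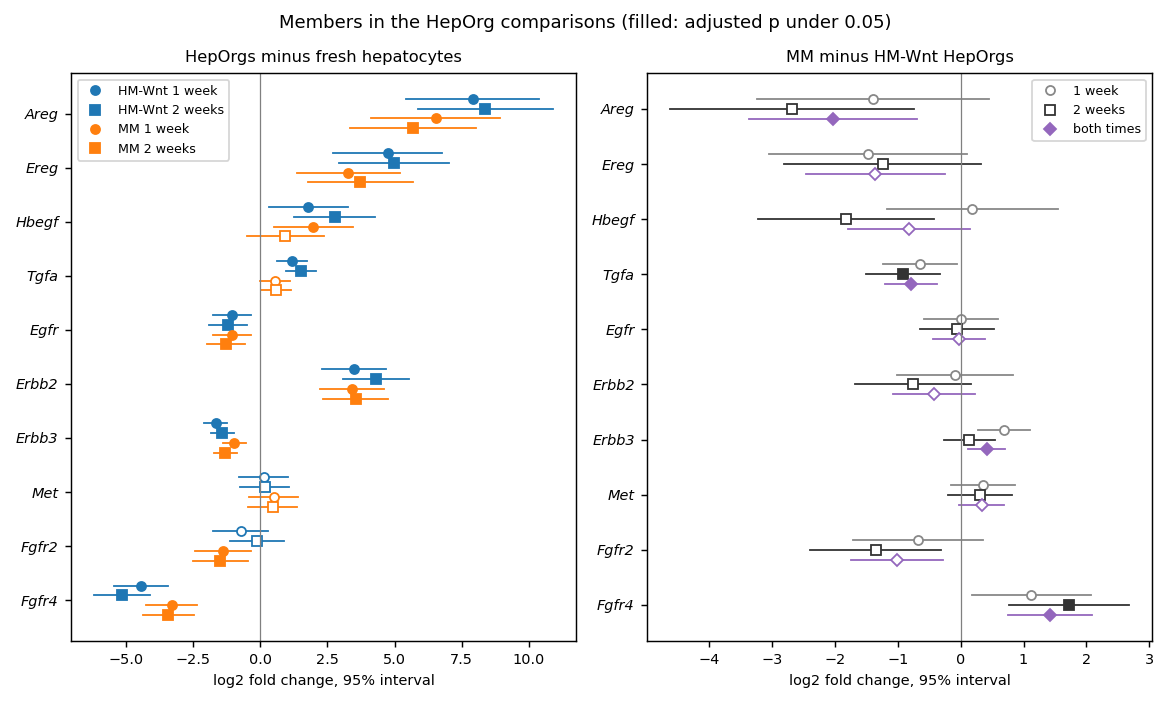
Log2 fold changes of the 10 members with 95% intervals, on the left for HepOrgs minus fresh hepatocytes in each medium and time, on the right for MM minus HM-Wnt at each time and over both, with filled symbols for adjusted p under 0.05. On the left the 4 ligands and Erbb2 lie above 0 and Fgfr4 lies between -5.15 and -3.31, and on the right Areg and Tgfa lie below 0 and Fgfr4 above.

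The comparison of MM with HM-Wnt asks what the members do when EGF, HGF, FGF7 and FGF10 are withdrawn from HepOrgs, although the effect of these factors cannot be told apart from that of the other components that MM lacks. At 1 week 0 of the 10 members passed in edgeR (2.98% of the 12989 genes tested did). DESeq2 called 1, Erbb3, beside 1420 of all genes. At 2 weeks Fgfr4 rose and Tgfa fell (11.5% of genes passed). Over both times, averaging the 1-week and 2-week effects, Fgfr4 and Erbb3 rose and Areg and Tgfa fell (21.5% of genes passed). The median log2 fold change of the members over both times was -0.61, beside -0.02 for all genes.

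No label says that equal replicate numbers share an animal or a batch. In these data all 18 HepOrg pairs of the same number deviated together from their condition means, with correlations from 0.127 to 0.503. The number was therefore also tried as a block, a choice that rests on the same values that were tested. With the number as a block, 2 members passed at 1 week (Erbb3 and Tgfa), 5 at 2 weeks (Areg, Hbegf, Tgfa, Erbb2 and Fgfr4) and 8 over both times, all except Egfr and Fgfr2. Calls over all genes rose with the block too, from 387 to 1232 at 1 week and from 1488 to 2544 at 2 weeks. The number over both times is not given here, and nothing about the members as a set is read from these counts.

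Areg fell over both times by 2.04 ± 0.61 on the log2 scale (adjusted p = 0.0349), or by 2.50 ± 0.44 with the block (adjusted p = 0.00249), from a mean level of 62.1 CPM to 15.6 CPM. Tgfa fell by 0.79 ± 0.19 (adjusted p = 0.014), with the same size and an adjusted p of 0.000975 with the block. Ereg and Hbegf did not pass without the block (log2 fold changes of -1.36, adjusted p = 0.0768, and -0.82, adjusted p = 0.21) and passed with it (-1.34, adjusted p = 0.0163, and -1.06, adjusted p = 0.0149). Over both times each of the 4 ligands had a lower mean in MM than in HM-Wnt, at a ratio between 0.251 and 0.575, but at 1 week alone the Hbegf mean was 9.64 CPM in MM and 8.45 CPM in HM-Wnt.

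Fgfr4 rose over both times by 1.42 ± 0.31 (adjusted p = 0.00812; 1.31 and 0.00482 with the block), from a mean level of 1.72 to 4.53 CPM, a level still below every fresh library. Erbb3 rose by 0.41 ± 0.13 (adjusted p = 0.0449; 0.42 and 0.0384 with the block). Erbb2 and Met passed with the block alone (-0.45, adjusted p = 0.0173, and 0.36, adjusted p = 0.0251). Fgfr2 narrowly missed, at -1.02 ± 0.34 (adjusted p = 0.0507). Egfr differed by -0.03, with an interval from -0.45 to 0.39.

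Without the block, the Areg call was lost when MM replicate 1 or 2 of either time, HM-Wnt replicate 3 at 1 week or HM-Wnt replicate 1 or 2 at 2 weeks was left out (adjusted p from 0.062 to 0.0869), and that of Erbb3 was lost without any 1 of 10 of the 12 libraries. The calls of Tgfa and Fgfr4 over both times withstood the removal of each library. At 2 weeks alone, that of Tgfa was lost without any 1 of the 6 libraries (adjusted p from 0.052 to 0.168) and that of Fgfr4 without any 1 of them except MM replicate 3 (adjusted p from 0.0693 to 0.108). Portal mesenchyme markers, summed, ran from 2.36 to 63.9 CPM in HM-Wnt and from 17.3 to 240 CPM in MM, and 1 of 7 tested rose over both times, while 1 of 8 hepatocyte markers rose and 1 fell. Of the others, 1 of 7 cholangiocyte, 1 of 3 endothelial and 1 of 4 immune markers tested rose too. Over both times 21.5% of all genes passed, and nothing is read from these marker counts. Immune markers summed to 19.7 to 53.0 CPM in HM-Wnt and 8.26 to 751 CPM in MM, the highest library standing above the fresh maximum of 569 CPM, with Lyz2 at up to 696 CPM and Adgre1 at up to 9.52 CPM in MM at 2 weeks. Their part in the result was not tested.

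The wider lists moved as follows over both times, where 21.5% of all genes passed. The lists were chosen with earlier results of these data known, so that their counts are no independent support. Of the 17 ERK output genes, 0 rose and 9 fell (median log2 fold change -0.83, beside -0.02 for all genes): Dusp5 (-2.02), Egr1 (-1.85), Etv4 (-1.24), Ier3 (-1.04), Etv5 (-1.03), Spry4 (-0.99), Phlda1 (-0.90), Spred1 (-0.67) and Dusp6 (-0.59). Egr1, an immediate early transcription factor, went from a mean of 527 CPM in HM-Wnt to 154 CPM in MM. The number that fell was 10 with the block and 10 by DESeq2, each with 1 gene that rose, 6 of 14 by limma on log2(TPM + 1), 6 to 10 when 1 library was left out (with 1 that rose without MM replicate 1 at 1 week) and 0 in the fit of all 27 libraries, where 0 also rose. At 1 week 2 of the 17 fell, Egr1 (-1.40) and Phlda1 (-0.70), beside 2.98% of all genes that passed, and with the block 5 fell and 1 rose. Without MM replicate 1 or 2 or HM-Wnt replicate 1 or 2 none fell at 1 week, and 1 fell without HM-Wnt replicate 3. At 2 weeks 6 fell (11.5% of all genes passed), and 4 when MM replicate 1 or 2 or HM-Wnt replicate 1 or 3 was left out.

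On the receptor side, 4 of the 6 tested genes of the FGF list rose over both times (21.5% of all genes passed), Klb (2.61), Fgfr3 (1.79), the hepatokine Fgf21 (1.00) and the decoy receptor Fgfrl1 (0.77), and 0 fell. At 1 week alone Fgfr3 (1.96) and Fgfrl1 (0.77) rose, and at 2 weeks Klb (3.32) and Fgfr3 (1.63). In the EGF family Erbb4 rose (3.98, from a mean of 0.110 to 2.57 CPM), and Btc (-0.89) and the sheddase Adam17 (-0.50) fell. Of the relay from receptor to ERK, 1 of 17 genes passed, the phosphatase Ptpn11 (-0.36). The receptor feedback inhibitor Errfi1 fell by 0.85. Of the genes for the factors in HM-Wnt, Hgf did not pass between the media (1.71 ± 1.02, adjusted p = 0.256, from a mean of 0.326 CPM in HM-Wnt to 1.07 CPM in MM), Egf was at or below a mean of 1.08 CPM in all 9 conditions and did not differ between the media (-0.22, adjusted p = 0.639), Fgf7 was listed at 0 in all 27 libraries with 100% of its exon bases inside another annotated gene, and Fgf10 was listed at 0 in all 12 HepOrg libraries.

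Between 1 and 2 weeks 0 of 10 members passed in HM-Wnt (0% of genes passed, with 1134 of 12989 at an unadjusted p under 0.05) and 0 of 10 in MM (0.0154% of genes). No member reached an unadjusted p under 0.05 in either, and DESeq2 and limma called none. The log2 fold changes of the members lay between -0.71 (Fgfr4) and 0.98 (Hbegf) in HM-Wnt and between -1.03 (Hbegf) and 0.47 (Ereg) in MM, and Hgf (-1.34 and -0.0052) and Egf (-0.23 and -1.38) did not pass. The 95% interval in MM ran from -2.66 to 1.02 for Areg and from -0.72 to 0.10 for Erbb3. The difference between the medium effects at 2 weeks and 1 week passed for no member, the lowest p being that of Hbegf (difference -2.02 ± 0.89, adjusted p = 0.671 in edgeR's quasi-likelihood test).

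The comparison of fibrosis-like with homeostasis assembloids asks what a 10-fold excess of portal mesenchyme does at a fixed number of HepOrgs and cholangiocytes. In edgeR 0 of the 10 members passed at 1 week (0% of 14253 genes, with 2012 at an unadjusted p under 0.05) and 0 at 2.5 weeks (0%, with 944 at an unadjusted p under 0.05). At each time 2 members had an unadjusted p under 0.05, and DESeq2, which called 867 and 273 genes, called Ereg at both times (adjusted p = 0.0277 and 0.023). The median log2 fold change of the members was -0.22 and 0.05, beside 0.20 and 0.03 for all genes.

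Ereg had a log2 fold change of 2.75 ± 0.91 (adjusted p = 0.291) at 1 week and 3.04 ± 0.92 (adjusted p = 0.714) at 2.5 weeks, with 95% intervals from 0.73 to 4.76 and from 1.00 to 5.08 and no overlap between the groups at either time. Erbb2, likewise without overlap, had 2.08 ± 0.94 (adjusted p = 0.356) and 2.67 ± 0.97 (adjusted p = 0.737). For Hbegf the values were 0.93 ± 1.10 (adjusted p = 0.754) and 2.37 ± 1.14 (adjusted p = 0.769), and the groups overlapped at 1 week only. Erbb3 had -1.33 ± 0.45 (adjusted p = 0.291) at 1 week, with all 3 fibrosis-like libraries below the homeostasis libraries, and -0.43 (adjusted p = 1) at 2.5 weeks.

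Several of the 1-week values turned on homeostasis replicate 2. Without it 8.01% of 14746 genes passed, and among the members Hbegf did, with a log2 fold change of 3.48 ± 0.88 (adjusted p = 0.0472). Areg went from -0.88 ± 1.07 (adjusted p = 0.762) to 1.96 ± 0.67 (adjusted p = 0.0806) and Tgfa from -0.54 to 0.34 (adjusted p = 0.69 and 0.477). Ereg (2.38, adjusted p = 0.0964), Erbb2 (1.63, adjusted p = 0.223) and Erbb3 (-0.65, adjusted p = 0.121) kept their sign without passing. With 2 homeostasis libraries left, the spread is borrowed in part from the other 3 groups.

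**Figure D5:**
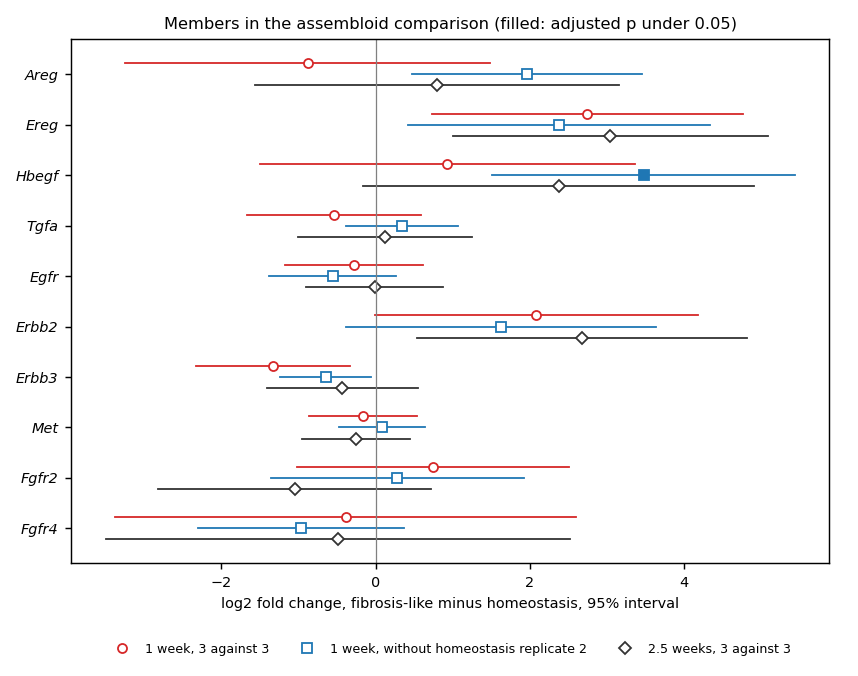
Log2 fold changes of the 10 members, fibrosis-like minus homeostasis assembloids, with 95% intervals, at 1 week with all 6 libraries, at 1 week without homeostasis replicate 2, and at 2.5 weeks, with filled symbols for adjusted p under 0.05. Ereg and Erbb2 lie above 0 in all 3 estimates, Areg and Tgfa change sign without that library, and Hbegf without it, at 3.48, is the filled symbol.

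Portal mesenchyme markers had summed levels of 284 to 6058 CPM in fibrosis-like and 122 to 1041 CPM in homeostasis assembloids at 1 week and of 1320 to 4997 CPM and 170 to 248 CPM at 2.5 weeks, though 0 of 8 passed in edgeR at either time. Hepatocyte markers summed to 2715 to 20200 CPM in fibrosis-like and 2293 to 81385 CPM in homeostasis assembloids at 1 week. The summed cholangiocyte markers, most of which is Spp1, overlapped at both times, but at 2.5 weeks Krt19 (191 to 1632 CPM against 37.2 to 64.9), Krt7 (242 to 959 against 31.3 to 76.7), Epcam (72.8 to 497 against 7.89 to 27.3), Cldn4 (66.1 to 141 against 7.04 to 28.4) and Sox9 (26.99 to 54.1 against 16.6 to 22.5) were higher in every fibrosis-like library than in every homeostasis library, as Ereg and Erbb2 were. At 1 week the first 4 overlapped, with homeostasis maxima such as 1521 CPM for Krt19, and Sox9 did not. None of the 8 cholangiocyte markers passed in edgeR at either time. The part of these cell types in the values of Ereg, Erbb2 and Hbegf was not tested. The genes for HGF and FGF10, factors of mesenchymal origin, did not pass either. Fgf10 had mean levels of 6.61 and 7.55 CPM in fibrosis-like and 0.288 and 0.282 CPM in homeostasis assembloids (adjusted p = 0.31 and 0.742), and Hgf 15.0 and 13.0 CPM against 21.8 and 0.890 CPM (adjusted p = 0.931 and 0.756). The homeostasis mean of Hgf at 1 week comes from replicate 2, with 64.1 CPM. Of the 75 further genes, 73 were tested and 0 passed at either time, with a median log2 fold change of 1.33 and 1.02 for the ERK output list. At 1 week 3 of its 17 genes rose without homeostasis replicate 2, as did 1 feedback inhibitor, while 1 gene of the relay fell. With all libraries 3 ERK output genes rose by DESeq2, 2 of 16 by limma and 3 in the fit of all 27 libraries. Egf did not pass (0.62 and 0.068, adjusted p = 0.777 and 1).

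Between 1 and 2.5 weeks no member passed in homeostasis (0% of genes, with 936 at an unadjusted p under 0.05) or fibrosis-like assembloids (0%, with 122), and DESeq2 and limma called no member in either. In homeostasis assembloids 2 members, Areg (-3.07 ± 1.15, adjusted p = 0.759) and Fgfr2 (1.87 ± 0.82, adjusted p = 0.759), had an unadjusted p under 0.05, and without homeostasis replicate 2 at 1 week Areg was at -0.22 and Fgfr2 at 1.40 (adjusted p = 1 for both). In fibrosis-like assembloids 0 members had an unadjusted p under 0.05, with log2 fold changes between -1.39 (Areg) and 1.05 (Fgfr4). Over time Hgf had -4.44 and -0.21 (adjusted p = 0.759 and 1), Egf -0.14 and -0.70 and Fgf10 0.024 and 0.19 in homeostasis and fibrosis-like assembloids. The difference between the ratio effects at the 2 times passed for no member.

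Assembloids were also set beside HepOrgs alone in the same medium at 1 week. The 2 comparisons share the MM HepOrg libraries. Homeostasis assembloids gave 0 of 10 members (0% of 14386 genes, with 2249 at an unadjusted p under 0.05), with 2 members, Egfr (-1.04 ± 0.37, adjusted p = 0.191) and Fgfr2 (-1.66 ± 0.71, adjusted p = 0.272), at an unadjusted p under 0.05, and DESeq2 and limma called no member. Without homeostasis replicate 1 both fell, Egfr (adjusted p = 0.0308) and Fgfr2, the latter by 3.22 (adjusted p = 0.0187), and without replicate 2 they were at -0.80 and -1.23 (adjusted p = 0.38 and 0.463). Areg and Hbegf, at 1.79 and 1.29 with all libraries, were at -1.16 and -1.35 without replicate 2.

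Fibrosis-like assembloids gave 0 of 10 members in edgeR (0.751% of genes passed) with 4 at an unadjusted p under 0.05. Ereg stood at 3.62 ± 0.92 (adjusted p = 0.0609), a ratio of mean levels of 12.7, Egfr at -1.34 ± 0.38 (adjusted p = 0.0751), Erbb3 at -1.33 ± 0.40 (adjusted p = 0.0872) and Erbb2 at 2.03 ± 0.84 (adjusted p = 0.182). In these 4, and in Fgfr2, the 3 fibrosis-like libraries did not overlap with the 3 MM HepOrg libraries. The share of all genes without overlap was not computed and that at an unadjusted p under 0.05 is not given here. Nothing about the members as a set is read from these counts. DESeq2, which called 2081 genes against 108 by edgeR, called Ereg, Egfr and Erbb3, and limma on log2(TPM + 1) called Ereg and Erbb2. Fgf10, at 0 in the MM HepOrgs and 6.63, 13 and 0.201 CPM in the fibrosis-like libraries, had an adjusted p of 0.055. In the homeostasis and fibrosis-like comparisons Hgf had 4.26 and 3.75 (adjusted p = 0.309 and 0.284) and Egf -0.75 and -0.14 (adjusted p = 0.712 and 0.955).

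Summed levels of cell type markers are given for these comparisons as well. Hepatocyte markers summed to 2715 to 20200 CPM in the fibrosis-like assembloids and 19113 to 53185 CPM in the MM HepOrgs, and portal mesenchyme markers to 284 to 6058 CPM against 65.8 to 240 CPM. In the homeostasis assembloids the sums were 2293 to 81385 CPM and 122 to 1041 CPM. None of the 8 markers of either list passed in edgeR in either comparison. Their part in the lower Egfr and Erbb3 and higher Ereg and Erbb2 values was not tested.

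The genes whose mean log2 CPM over the 9 conditions was most like that of each member, out of 7494 genes, were named as a description of pattern. For Fgfr4 they were Pxmp2, Nfyc and Adh4 (Pearson r of 0.992, 0.988 and 0.986) and for Egfr Zfp36, Cyp2e1 and Apol9b (0.986, 0.984 and 0.984). For Erbb3 they were Pttg1ip, Ttyh2 and Clpp (0.976 to 0.967), for Met Psmd8, Cacul1 and Bnip2 (0.956 to 0.933), for Fgfr2 Gphn, Il31ra and Camk1d (0.989 to 0.986) and for Tgfa Eif3e, Eif3h and Rpl6 (0.986 to 0.965). Erbb2 and Ereg shared Sh3pxd2b (0.986 and 0.976), which stood beside Capg and Vasp for Erbb2 and beside Prom1 for Ereg. For Areg they were Card19, Smox and Bex3 (0.995 to 0.984) and for Hbegf Ptprs, Agrn and Lsm8 (0.979 to 0.962). The 9 points share libraries and scaling between genes and 1 of them, homeostasis at 1 week, holds the library with few detected genes.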

How the data were processed

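Libraries were made by SMART-seq2 with Nextera and sequenced as paired ends on a NovaSeq. The authors aligned reads to GRCm39 (release 109) with STAR 2.7.11b and assigned them to genes with featureCounts 2.0.6, and the deposited counts are raw whole numbers per gene. The deposited TPM values were made by the authors with a gene length that lies within 5% of the whole gene span for 80.8% of genes, and were used only for an alternative. The table also holds 10 libraries that were not used.

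Counts were tested in R 4.3.3 with edgeR 4.0.16 (TMM, filterByExpr with a minimum count of 10 and total of 15, prior count 2, quasi-likelihood test, 2-sided) and p-values were adjusted by Benjamini-Hochberg over all genes of a fit, with a threshold of 0.05. Fits held the 15 HepOrg and fresh libraries, the 12 HepOrg libraries, the 12 assembloid libraries, or the 18 libraries kept in MM, with 1 mean per condition. The script was tested on simulated counts. Alternatives were RLE size factors, DESeq2 1.42.0, no low-count filter, limma 3.58.1 on log2(TPM + 1) (minimum of 1 TPM in any 3 libraries), a single fit to all 27 libraries, a block for the replicate number, and omission of each library in turn. Same-numbered HepOrg libraries deviated together (correlation over 0.1 in 18 of 18 pairs, against 2 of 36 pairs of different numbers). With fresh hepatocytes included 19 of 30 pairs did, with 6 of 18 among assembloids and 11 of 45 among libraries in MM. Numbers were therefore taken to pair HepOrgs only, without a label that says so. Centring each condition on its mean in itself lowers the correlations between different numbers.

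The members, the 75 further pathway genes and the marker lists were chosen with earlier results of these data known. By the rule for named genes, members are described in every comparison, in full or by their range, together with Egf, Hgf, Fgf7 and Fgf10 where tested, up to 3 further genes with the highest and 3 with the lowest log2 fold change past the threshold, and for pattern the 3 genes with the highest correlation of mean log2 CPM (at least 3 on average), of which 1 is not reported here. Adam17, Btc, Dusp6, Etv5, Fgf21, Nrg1, Ptpn11, Spred1 and Spry4 fall outside this rule in some or all of the comparisons where they are named and were picked after their values were seen. Promoters are RefSeq sequences of GRCm38.p6.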

Additional observations from a re-analysis of the deposited data

How the results depend on the processing

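Of 37 member fold changes that passed, 468 values were recomputed under alternatives: 0 reversed and 80 no longer passed. Counts of members that passed changed as follows. At 1 week MM against fresh hepatocytes gave 4 in the fit of all 27 libraries. MM against HM-Wnt at 1 week gave 1 by DESeq2 and 2 with the replicate block, and at 2 weeks 5 by DESeq2, 5 with the block, 1 with no filter, 1 by limma and 0 in the fit of all libraries. Over both times it gave 8 with the block and 0 in the fit of all libraries. Fibrosis-like against homeostasis assembloids gave 1 by DESeq2 at each time and 1 at 1 week in the fit of all libraries, and fibrosis-like assembloids against MM HepOrgs gave 3 by DESeq2, 2 by limma and 3 in the fit of all libraries. The block changed no count by more than 1.5 times elsewhere. Leaving out 1 library gave 6 to 8, 8 to 9, 5 to 8 and 6 to 7 members against fresh hepatocytes (HM-Wnt and then MM, 1 week before 2), the 5 without MM replicate 3, 0 to 2 for the media at 1 week (2 without MM replicate 3), 0 to 4 at 2 weeks (4 without MM replicate 3, 1 without HM-Wnt replicate 2 and 0 without any other) and 2 to 5 over both times (2 without MM replicate 1 at 1 week, MM replicate 1 or 2 at 2 weeks or HM-Wnt replicate 1 at 2 weeks), 0 to 1 for the assembloids at 1 week, 0 to 2 for homeostasis assembloids against MM HepOrgs and 0 otherwise.

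Signs were compared for 79 member fold changes, the 37 that passed and others picked by hand, and not for the remaining ones. Among the 79, reversed signs were confined to fold changes that had not passed. By limma on log2(TPM + 1) these were Fgfr2 in HM-Wnt at 2 weeks against fresh hepatocytes (0.31), Areg (1.16) and Tgfa (0.36) in assembloids at 1 week and Met in assembloids at 2.5 weeks (0.26), and with the replicate block Areg in assembloids at 1 week (0.21). Leaving out 1 library gave ranges across 0 for Met against fresh hepatocytes (-0.24 to 1.00 and -0.22 to 1.03 in HM-Wnt), Fgfr2 in HM-Wnt at 2 weeks (-0.54 to 0.28), Egfr between the media over both times (-0.13 to 0.074), Areg (-1.38 to 1.96) and Tgfa (-0.86 to 0.34) in assembloids at 1 week, Hbegf in homeostasis assembloids over time (-2.93 to 0.13) and Areg (-1.16 to 3.51) and Hbegf (-1.35 to 2.23) in homeostasis assembloids against MM HepOrgs. The cause was not tested.

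Over all genes, counts past the threshold moved by more than 1.5 times between the media at 1 week (387, against 1420 by DESeq2 and 1232 with the block), at 2 weeks (1488, against 2494 and 2544) and for fibrosis-like assembloids against MM HepOrgs (108, against 2081 by DESeq2, 2020 by limma and 48 with the block). DESeq2 called 895 genes for homeostasis assembloids against MM HepOrgs, 12 and 0 for the change over time in homeostasis and fibrosis-like assembloids, and 13 and 308 for that in HM-Wnt and MM HepOrgs. In the fit of all 27 libraries, with a shared spread that includes the assembloids, counts fell to between 1890 and 3248 against fresh hepatocytes and to 0, 7 and 91 between the media, and rose to 910, 197 and 1068 for the assembloids at 1 week and for the 2 kinds of assembloid against MM HepOrgs. On log2(TPM + 1) the median of all genes moved by over 0.1 in several comparisons, to 0.40, 0.68, 0.47 and 0.40 against fresh hepatocytes, where 4126 genes were higher and 1284 lower in HM-Wnt at 1 week in place of 3341 and 3325, 5829 and 1069 in place of 3500 and 3442 at 2 weeks, and in MM 4466 and 914 in place of 2883 and 2855 and then 3806 and 892 in place of 2641 and 2680. For fibrosis-like assembloids against MM HepOrgs the split was 1896 and 124 in place of 52 and 56, so that differences on that scale are best read against this shift. That scale gives no value for Fgfr2 in the assembloid fits, where its TPM stays under the minimum.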
